A study of Homo sapiens with 9 samples.

Results

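The genes of mitosis and of the G2/M transition were followed as a set of 55 genes named by symbol, and were measured on 9 Affymetrix Human Gene arrays. A gene was represented by a probe set that the array annotation maps to that 1 symbol, and the brightest was taken where there were several. This gave 54 of the 55 genes a value, and all 54 passed the filter of a highest log2 signal of at least 5 over the 9 arrays, as did 17482 of the 33297 probe sets in all. CENPA, the histone H3 variant of centromeres, lies on a probe set that it shares with another gene and has no value here. BIRC5 had 2 probe sets of its own, with means of 7.21 and 3.73, and the brighter was used. Gene levels are given as log2 signals, so that a difference of 1 is a 2-fold change, and they are compared between arrays and not between genes.

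The arrays were labelled as RNA of SK-BR-3, a breast cancer cell line with amplified ERBB2, and formed 3 groups of 3: cells stably transfected with TFPIα cDNA, with TFPIβ cDNA, or with the empty vector pTOPO. TFPI is an inhibitor of blood coagulation, TFPIα being the secreted isoform and TFPIβ the isoform anchored to the cell surface, and the comparison asked which transcripts differ when either is overexpressed. Each group was 1 pool of stably transfected cells in the pcDNA3.1/V5/His-pTOPO vector, the controls included, and all had been under drug selection, named as puromycin in the sample labels and as neomycin in the methods. The 3 arrays of a group came from 3 RNA isolations, so the p-values measure the spread between isolations of 1 pool.

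Most marker genes of the labelled cell line had low signals, while the measured genes of the basal epithelial list had high signals. The groups are therefore named as labelled. TFPI itself had log2 signals of 5.66, 5.81 and 5.51 under the TFPIα label and 5.55, 5.79 and 5.81 under the TFPIβ label, against 5.81, 6.48 and 6.45 under the empty vector label, so that it was not higher in either group labelled as overexpressing it. This signal does not settle the labels. The transfected cDNA held the coding region alone, and by the study's account the probes for the untranslated regions of TFPI did not detect it. With PLIER, an algorithm that drops probes of low signal, the study did report TFPI as raised on its arrays with both isoforms. It also reported raised TFPI mRNA by qRT-PCR in both pools. PLIER signals were not computed here. ERBB2 lay between 5.63 and 6.24 over the 9 arrays, GRB7 between 5.04 and 5.30 and KRT19 between 4.64 and 5.25. GATA3 and FOXA1 reached at most 5.82 and 5.13. Of the other genes listed with them, STARD3 lay between 6.45 and 6.58, KRT8 between 5.68 and 6.2 and KRT18 between 9.49 and 10.76. ESR1, also on that list, reached at most 3.81 and is not counted as a marker of the labelled line. The basal keratins KRT5 and KRT14 lay between 12.40 and 12.83 and between 11.99 and 12.74, and VIM between 10.34 and 10.74. Of the fibroblast list, DCN lay between 9.48 and 11.14 and COL1A1 between 6.18 and 7.72, while COL1A2, COL3A1 and PDGFRB did not pass the filter. Of the leukocyte list, CD68 lay between 7.0 and 7.92 and CD14 between 6.46 and 9.12, and PTPRC and CD3E did not pass. Of the endothelial list, PECAM1 lay between 5.25 and 5.66, and VWF and CDH5 did not pass. The part of these markers in the results was not tested. Of the single arrays, TFPIβ replicate 3 was most like TFPIα replicate 3 over all probe sets tested (Pearson's r = 0.9874). TFPIβ replicate 2 was most like empty vector replicate 2 (r = 0.9838), and TFPIβ replicate 1 most like TFPIα replicate 1 (r = 0.9855), in both cases mutually. Empty vector replicate 1 was most like TFPIα replicate 1 (r = 0.9849). Only TFPIα replicates 2 and 3 and empty vector replicate 3 were most like an array of their own group. TFPIβ replicates 2 and 3 had the lowest correlation of any pair within a group (r = 0.9526). The main counts and medians of the members below are also given without TFPIβ replicate 2, TFPIβ replicate 3 or empty vector replicate 2. Single fold changes of TFPIα over empty vector are given without empty vector replicate 2 for the genes with the most extreme values.

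In dividing cells, CDK1 bound to cyclin B drives entry into mitosis, the Aurora and Polo-like kinases shape the spindle, and the spindle checkpoint holds back the anaphase-promoting complex until all chromosomes are attached. The genes of these proteins are repressed in resting cells and are transcribed late in the cell cycle. The MuvB complex, joined with B-MYB and FOXM1, binds an element in their promoters called the cell cycle genes homology region (CHR), and the factor NF-Y binds CCAAT boxes nearby. High levels of this set are in general known as a sign of many dividing cells.

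Promoter sequences were taken from RefSeq on GRCh38.p14, from 250 bases before to 50 after the start listed first for each gene, and 47 of the 54 measured genes had an entry. AURKA, TPX2, BUB3, TTK, BIRC5, RACGAP1 and UBE2C had none. The CHR was searched as TTTGAA or TTTAAA and the CCAAT box as CCAAT, each on both strands, TTTAAA reading the same on either. A CHR match was present in 40 of the 47 promoters (85.1%), against 24.3% of the 27305 promoters of all genes, and a CCAAT match in 36 (76.6%), against 35.7%. Both motifs occurred in 30 of the 47 (63.8%), against 9.49% of all promoters, and in CDCA8 and MKI67 a CHR match and a CCAAT match shared a base. Within the stretch from 60 bases before to 50 after the start, 35 of the 47 (74.5%) had a CHR match, against 8.39% of all promoters. Among the S phase and licensing genes, which are transcribed earlier in the cell cycle, 4 of 33 promoters (12.1%) had a CHR match. The 7 members with a promoter entry and no CHR match were CCNA2, CDC25C, AURKB, NEK2, BUB1, SPC24 and CENPK, which says only that these letters are not in this window. A match is a run of letters and not a measured binding site.

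The stretches that follow show the CHR match nearest to the start among those lying before it, for 8 of the 12 members that the naming rule put forward for description in every array. The other 4 are AURKA and BIRC5, which have no promoter entry, and AURKB and BUB1, which have no CHR match. The matched letters are in capitals, the strand is that of the gene, and positions are on GRCh38.p14. In MKI67, CCNB1, PLK1 and KIF11 the match began 28 to 30 bases before the start, and in CDC20, CENPF, CDK1 and TOP2A it lay farther upstream.
MKI67 (chr10:128126435-128126464, minus strand, 29 bases before the start): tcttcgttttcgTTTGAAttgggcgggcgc
CCNB1 (chr5:69167108-69167137, plus strand, 30 bases before the start): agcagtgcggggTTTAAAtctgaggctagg
PLK1 (chr16:23678848-23678877, plus strand, 29 bases before the start): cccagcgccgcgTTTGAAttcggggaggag
KIF11 (chr10:92593090-92593119, plus strand, 28 bases before the start): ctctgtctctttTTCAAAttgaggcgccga
CDC20 (chr1:43358904-43358933, plus strand, 65 bases before the start): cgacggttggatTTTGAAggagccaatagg
CENPF (chr1:214603068-214603097, plus strand, 115 bases before the start): agagggcttgttTTTAAAatccatccgaaa
CDK1 (chr10:60778188-60778217, plus strand, 131 bases before the start): tgggagaaaaaaTTTAAAagaagaacggag
TOP2A (chr17:40418030-40418059, minus strand, 151 bases before the start): ctgattggtttaTTCAAAcaaaccccggcc

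**Figure D1:**
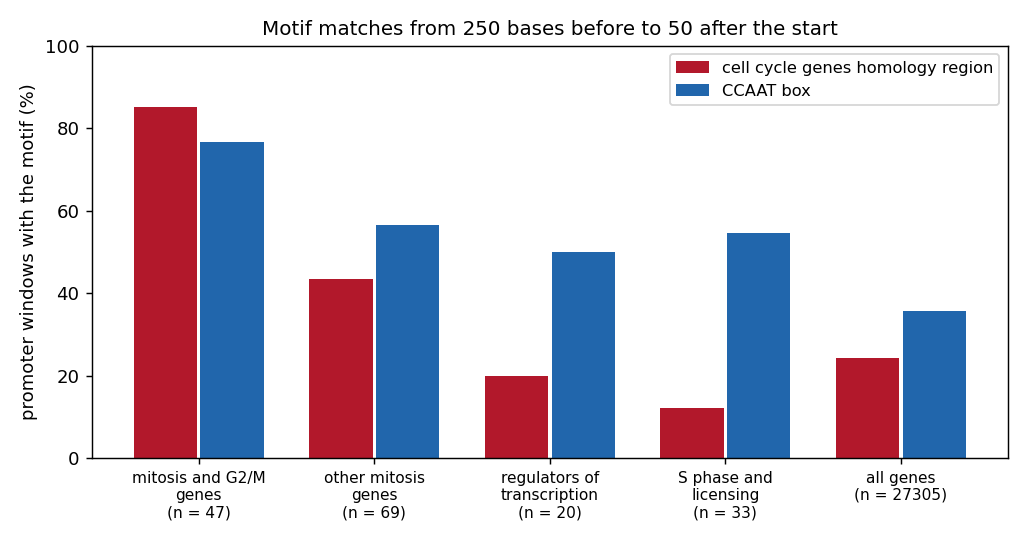
Share of promoter windows (%, from 250 bases before to 50 after the start) with a CHR match (left bar of each pair) or a CCAAT match (right bar), for the mitosis and G2/M genes, for 3 other gene lists and for all genes, with the number of promoters under each. The CHR share is 85.1% of the mitosis and G2/M genes, against 24.3% of all genes.

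Averaged over the 54 genes, the arrays labelled TFPIα had log2 signals of 8.18, 8.20 and 8.10, those labelled TFPIβ 7.60, 6.04 and 8.16, and those labelled empty vector 7.61, 6.52 and 7.67. The 9 arrays are described here by 3 levels, a grouping read off these means. The 3 TFPIα arrays and TFPIβ replicate 3 were high, and TFPIβ replicate 1 and empty vector replicates 1 and 3 were intermediate. The replicate 2 arrays of TFPIβ and empty vector were low. The low arrays were not equal, TFPIβ being below empty vector for 52 of the 54 genes, against 49.6% of all probe sets tested. The group means were 8.16 ± 0.05 for TFPIα, 7.27 ± 1.10 for TFPIβ and 7.27 ± 0.65 for empty vector (SD, n = 3 each). The levels were shared by the single genes: all 54 lay above their own mean over 9 arrays in each TFPIα array and in TFPIβ replicate 3, 33 did so in TFPIβ replicate 1, 34 and 39 in empty vector replicates 1 and 3, and 0 in the replicate 2 arrays of TFPIβ and empty vector. For all 54 genes those 2 replicate 2 arrays were below the other 7, which held for 13.7% of all probe sets tested. In RNA of a whole culture, fewer dividing cells and less RNA per dividing cell cannot be told apart.

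**Figure D2:**
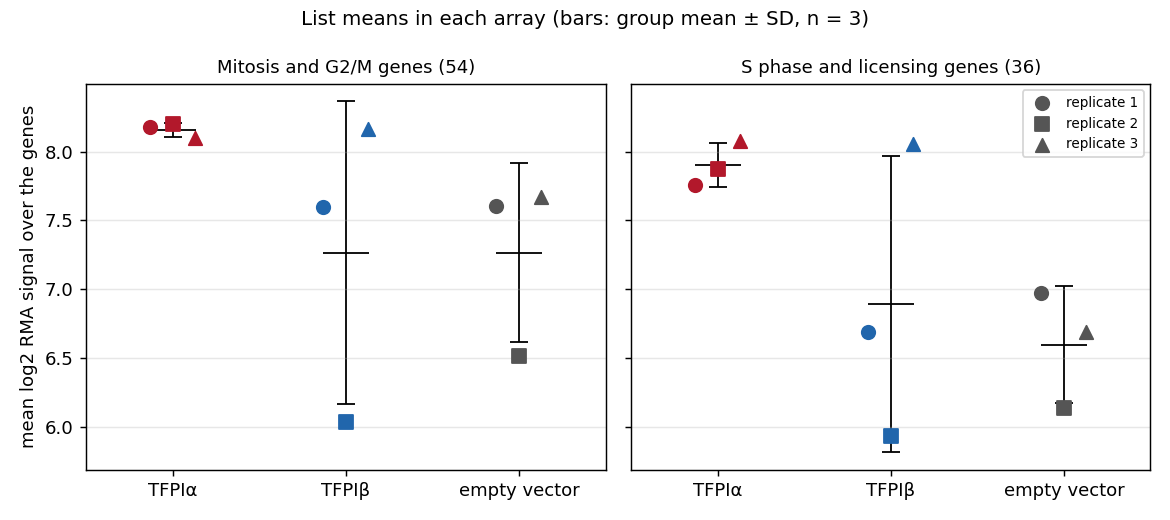
Mean log2 signal over the 54 mitosis and G2/M genes (left panel) and over 36 S phase and licensing genes (right panel) in each array, by labelled group, with symbols for the replicate number and bars for the group mean and SD (n = 3). In the left panel TFPIβ spans 6.04 to 8.16, while the TFPIα arrays lie between 8.10 and 8.20.

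The set varied far more than most transcripts. The highest and lowest arrays of a gene differed by a median of 2.30 (log2 signal) among the 54 genes, against 0.59 among all probe sets tested, and 40 of the 54 (74.1%) spanned at least 2, against 3.52%. The span ran from 0.73 for BUB3 to 3.42 for SPC25, and 52 genes were among the 10% of probe sets with the highest SD over the arrays. Of the variance of a gene, a median of 32.6% lay between groups, 39.6% between replicate numbers and 27.9% in neither, against 31.0%, 30.7% and 32.0% over all probe sets tested. The arrays within TFPIα were close, with a median SD of 0.12 over the genes, against 1.09 within TFPIβ and 0.67 within empty vector. TFPIβ replicate 2 was the lowest of the 9 arrays for 52 genes and empty vector replicate 2 for the other 2, MAD2L1 and CENPK. The highest array was TFPIα replicate 1 for 19 genes, replicate 2 for 20 and replicate 3 for 7, TFPIβ replicate 3 for 7 and empty vector replicate 3 for 1. By promoter motif, the median span was 2.30 in the 40 members with a CHR match and 2.30 in the 7 without, and 2.30 in the 36 with a CCAAT match and 2.43 in the 11 without.

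**Figure D3:**
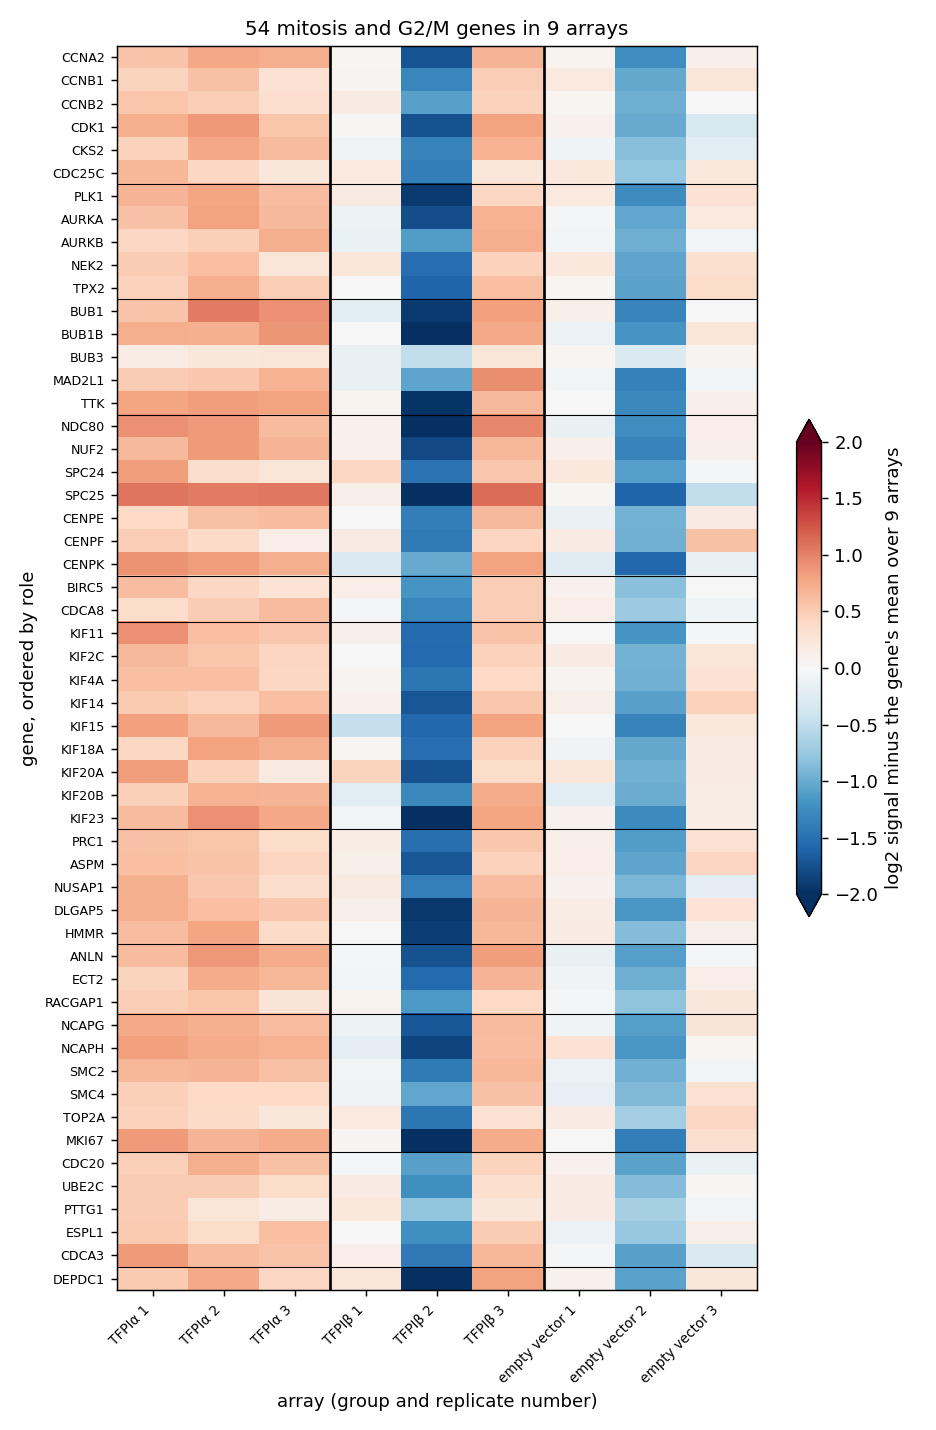
Log2 signal of each of the 54 mitosis and G2/M genes (rows, ordered by role) in the 9 arrays (columns), minus the mean of that gene over the 9 arrays, with red above and blue below that mean and the scale ending at 2 in each direction. Columns 5 and 8, the replicate 2 arrays of TFPIβ and empty vector, are below the mean for all 54 genes, and BUB3 is the palest row.

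CCNB1 encodes cyclin B1, the partner of CDK1 in mitotic entry, and had log2 signals of 10.39, 10.53 and 10.24 in TFPIα, 9.99, 8.63 and 10.44 in TFPIβ and 10.12, 8.92 and 10.18 in empty vector (arrays are named by their labels throughout). CDK1, the kinase itself, had 8.65, 8.78 and 8.48 in TFPIα, 7.94, 6.18 and 8.72 in TFPIβ and 8.01, 6.92 and 7.62 in empty vector. The TFPIα arrays were all above the empty vector arrays for both genes, and within TFPIβ replicate 3 reached the TFPIα arrays while replicate 2 was the lowest of all 9. The other members of this role were CCNA2, the cyclin of S phase and early mitosis, CCNB2, CKS2, a subunit of the CDK1 complex, and CDC25C, the phosphatase that activates CDK1. Over the 6 genes, log2 fold changes of TFPIα over empty vector ran from 0.55 to 1.12, and those of TFPIβ over empty vector from -0.20 to 0.15.

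PLK1, a Polo-like kinase needed for centrosome maturation and spindle assembly, had log2 signals of 8.83, 8.95 and 8.78 in TFPIα, 8.33, 6.25 and 8.57 in TFPIβ and 8.36, 6.91 and 8.45 in empty vector. It was 1 of 6 members for which every TFPIβ array was below every TFPIα array. AURKA, a kinase of the spindle poles, had 8.61, 8.83 and 8.66 in TFPIα, 7.93, 6.25 and 8.71 in TFPIβ and 8.0, 6.98 and 8.22 in empty vector. AURKB, the kinase of the chromosomal passenger complex, had 7.41, 7.47 and 7.72 in TFPIα, 6.87, 5.88 and 7.71 in TFPIβ and 6.94, 6.02 and 6.94 in empty vector. In AURKB the low arrays were close, at 5.88 and 6.02, whereas in PLK1 and AURKA TFPIβ replicate 2 was clearly the lower of the pair. NEK2, a kinase that parts the centrosomes, and TPX2, the activator of Aurora A on spindle microtubules, complete the group, and its 5 fold changes of TFPIα over empty vector were between 0.63 and 0.97 on the log2 scale.

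BUB1, a kinase of the spindle checkpoint, had log2 signals of 7.87, 8.33 and 8.21 in TFPIα, 7.06, 5.38 and 8.12 in TFPIβ and 7.41, 5.97 and 7.30 in empty vector. BUB3, the protein that brings BUB1 to kinetochores, had 9.97, 10.05 and 10.07 in TFPIα, 9.67, 9.34 and 10.06 in TFPIβ and 9.87, 9.53 and 9.88 in empty vector. The same arrays of BUB3 were low as in the rest of the set, over a much smaller span. BUB1B, MAD2L1 and TTK are the other checkpoint genes. MAD2L1, whose protein holds CDC20 inactive, was an exception at the low end, with 7.57 in TFPIβ replicate 2 and 7.27 in empty vector replicate 2. For these 5 genes the log2 fold changes of TFPIα over empty vector had a median of 1.13 and a range of 0.27 to 1.24.

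Kinetochore and centromere genes had the widest spread of fold changes, 0.40 to 1.75 for TFPIα over empty vector on the log2 scale. SPC25, a subunit of the NDC80 complex that binds microtubules, had log2 signals of 6.93, 6.89 and 6.92 in TFPIα, 5.97, 3.54 and 6.97 in TFPIβ and 5.89, 4.25 and 5.37 in empty vector. CENPK, a subunit of the inner kinetochore, had 7.26, 7.21 and 7.09 in TFPIα, 6.08, 5.35 and 7.16 in TFPIβ and 6.12, 4.80 and 6.22 in empty vector. In both genes TFPIβ replicate 3 lay among the TFPIα arrays or above them, and the other TFPIβ arrays lay far below every TFPIα array. The signals of 3.54 and 4.25 in SPC25 and 4.80 in CENPK lay under the filter value of 5. The fold changes of these genes thus rest in part on signals under it. CENPF, a large kinetochore protein of late G2, had 8.69, 8.59 and 8.34 in TFPIα, 8.39, 6.80 and 8.63 in TFPIβ and 8.37, 7.25 and 8.79 in empty vector. CENPF was the only member with its highest array in empty vector, replicate 3. NDC80, NUF2 and SPC24, the other subunits of the NDC80 complex, and CENPE, a kinetochore motor, had fold changes of TFPIα over empty vector of 1.21, 1.10, 0.78 and 0.85 on the log2 scale.

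BIRC5 encodes survivin, which with CDCA8, or borealin, places Aurora B at the centromere. BIRC5 had log2 signals of 7.83, 7.63 and 7.49 in TFPIα, 7.35, 6.03 and 7.70 in TFPIβ and 7.31, 6.37 and 7.22 in empty vector, and the fold changes of TFPIα over empty vector of the pair were 0.68 and 0.73 on the log2 scale. KIF11, the motor that pushes the spindle poles apart, had 8.02, 7.71 and 7.65 in TFPIα, 7.23, 5.57 and 7.67 in TFPIβ and 7.11, 5.93 and 7.09 in empty vector. Neither gene had an overlap between the TFPIα and empty vector arrays. With KIF11 the set holds 9 kinesin motors, the others being KIF2C, KIF4A, KIF14, KIF15, KIF18A, KIF20A, KIF20B and KIF23, which act on the spindle, on chromosomes and at the midzone, and their log2 fold changes of TFPIα over empty vector ran from 0.67 to 1.15. KIF20A was 1 of the 5 members whose TFPIα and empty vector arrays overlapped.

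The 5 spindle and midzone genes PRC1, ASPM, NUSAP1, DLGAP5 and HMMR were alike, with log2 fold changes of TFPIα over empty vector of 0.70 to 0.88, and 0 of the 5 reached a 2-fold change. The 3 cytokinesis genes, ANLN for the ring protein anillin and ECT2 and RACGAP1 for regulators of RhoA, had 1.18, 0.92 and 0.64. The condensin genes NCAPG, NCAPH, SMC2 and SMC4, whose products compact the chromosomes, had 1.00, 1.04, 1.03 and 0.67. DEPDC1, placed in no role, had 0.82.

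MKI67, the gene of the proliferation marker Ki-67 that coats mitotic chromosomes, had log2 signals of 8.57, 8.39 and 8.44 in TFPIα, 7.76, 5.69 and 8.45 in TFPIβ and 7.72, 6.33 and 8.03 in empty vector. TOP2A, the topoisomerase that untangles sister chromatids, had 9.24, 9.16 and 9.01 in TFPIα, 8.97, 7.32 and 9.09 in TFPIβ and 8.94, 8.08 and 9.19 in empty vector. The 2 genes differed at the upper end: MKI67 was lower in every empty vector array than in every TFPIα array, whereas TOP2A in empty vector replicate 3 lay within the TFPIα arrays. CDC20, the activator of the anaphase-promoting complex, had 9.11, 9.36 and 9.22 in TFPIα, 8.59, 7.54 and 9.07 in TFPIβ and 8.72, 7.57 and 8.51 in empty vector. The low arrays of CDC20 were nearly equal, and TFPIβ replicate 3 was below all 3 TFPIα arrays. The rest of this role comprises UBE2C, the ubiquitin-conjugating enzyme of that complex, PTTG1, or securin, ESPL1, or separase, and CDCA3, and its 5 fold changes of TFPIα over empty vector lay between 0.48 for PTTG1 and 1.16 for CDCA3 on the log2 scale.

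**Figure D4:**
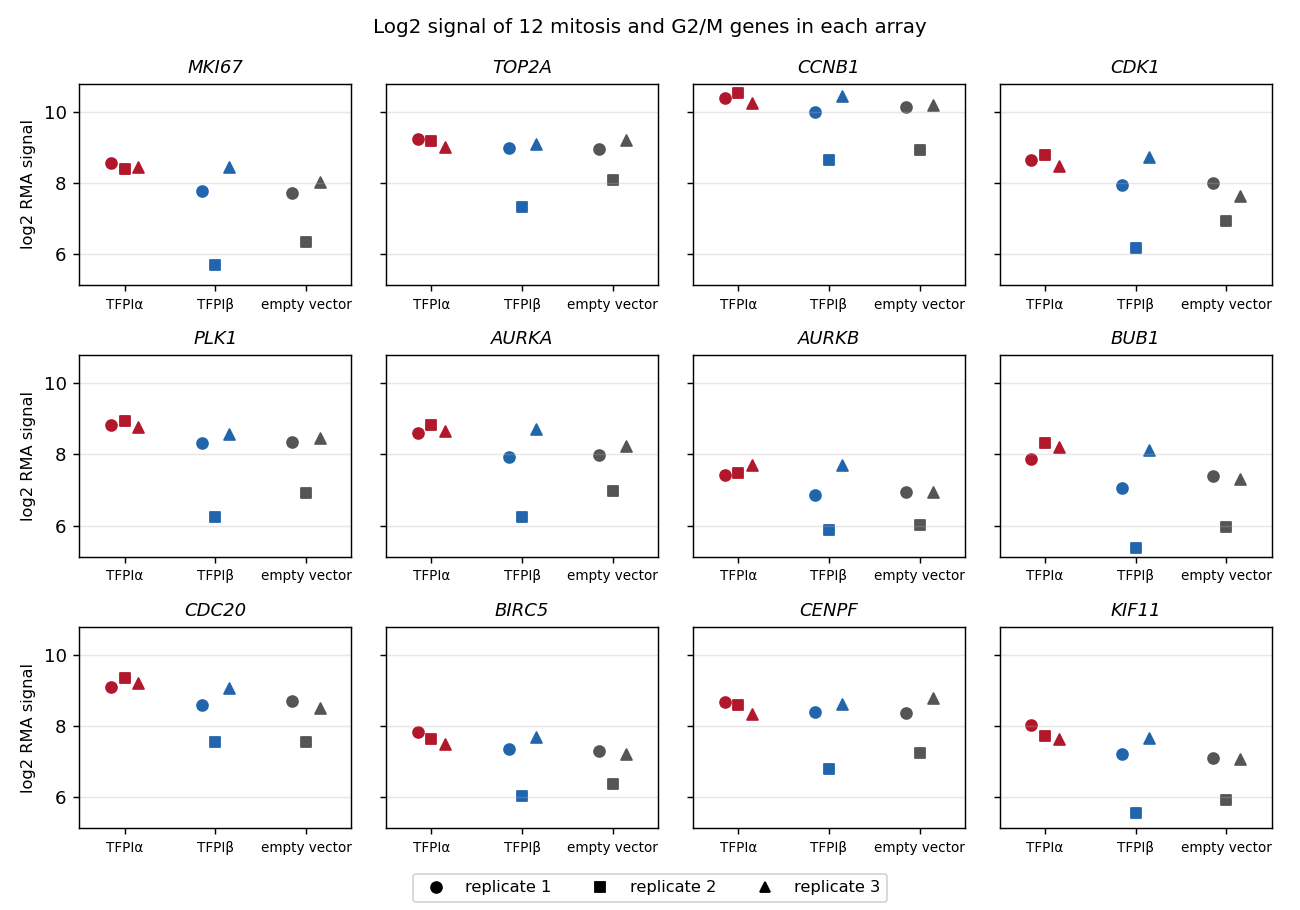
Log2 signal of 12 mitosis and G2/M genes in each array, by labelled group, with 1 panel a gene and symbols for the replicate number. In every panel the replicate 2 arrays of TFPIβ and empty vector lie below the other arrays, and replicate 2 of TFPIα does not.

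The comparison of arrays labelled TFPIα with those labelled empty vector asked whether the set differed with the secreted isoform. All 54 genes had a log2 fold change above 0, as did 50% of all probe sets tested, with a median of 0.89 and a range of 0.27 to 1.75. The highest were SPC25 at 1.75 ± 0.78, CENPK at 1.48 ± 0.49 and BUB1 at 1.24 ± 0.65 (standard error, n = 3 each). The lowest were BUB3 at 0.27 ± 0.18, TOP2A at 0.40 ± 0.47 and CENPF at 0.40 ± 0.52. Here and below, standard errors come from limma fits of all 3 groups together. The spread within TFPIβ thus enters those of this comparison too. A change of at least 2-fold was reached by 20 of the 54 genes, against 1.22% of all probe sets, and the arrays of the groups did not overlap for 49 (90.7%), all higher, against 14.4% of all probe sets higher and 8.85% lower. The call rule was a limma p, adjusted over all probe sets by Benjamini-Hochberg, under 0.05 together with a 2-fold change. It was met by 0 of 54 members, against 0.00572% of all probe sets. The lowest adjusted p was 0.335, for CENPK. At an unadjusted p under 0.05 there were 3 higher genes, CENPK, CDC20 and CDCA3 (5.56%, against 8.59% of all probe sets), and 0 lower, against 5.58%. Without variance moderation, as in an ordinary 1-way model, there were 1 higher, against 6.48%, and 0 lower, against 4.58%. A permutation test with 3 arrays against 3 cannot go below p = 0.1.

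The size of this difference rested on replicate 2 of empty vector. By replicate number, the mean of the 54 genes was higher in TFPIα than in empty vector by 0.57 for number 1, 1.68 for number 2 and 0.42 for number 3. The single genes were higher in TFPIα for 54, 54 and 50 of 54, against 49.5%, 51% and 49.4% of all probe sets. Leaving out empty vector replicate 2, the median was 0.56 instead of 0.89, 53 genes were above 0, 2 instead of 20 reached a 2-fold change, and the arrays did not overlap for 49, against 17.2% of all probe sets. Among the extremes, SPC25 was then 1.29 ± 0.86, CENPK 1.02 ± 0.45 and BUB1 0.78 ± 0.68, BUB3 was 0.16 ± 0.19 and TOP2A 0.07 ± 0.48, and CENPF turned to -0.04 ± 0.50 (standard error). The 3 genes at an unadjusted p under 0.05 became 0 without empty vector replicate 2 (against 4.06% of all probe sets), 39 without TFPIβ replicate 2 (10.1%), whose spread no longer entered the fit, and 31 without both (5.77%). Without TFPIβ replicate 3 they became 13 (11.8%), and without empty vector replicate 1 they were 4 (9.9%). They were 1 without empty vector replicate 3 (5.29%) or TFPIβ replicate 1 (7.64%). They were also 1 without TFPIα replicate 1, 2 or 3, against 8.53%, 4.52% and 3.63% of all probe sets. With the replicate number as a block they were 27, against 11.9% of all probe sets, with 0 lower, against 8.38%. The lowest adjusted p with the block was 0.190, and no member was called.

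In arrays labelled TFPIβ against those labelled empty vector, which asked the same of the surface isoform, the set showed no common direction. Of the 54 genes, 23 had a log2 fold change above 0 (42.6%, against 50.5% of all probe sets), with a median of -0.03 and a range of -0.27 to 0.49. The highest were CENPK at 0.49 ± 0.49, MAD2L1 at 0.39 ± 0.51 and SPC25 at 0.33 ± 0.78, and the lowest TOP2A at -0.27 ± 0.47, ASPM at -0.22 ± 0.57 and HMMR at -0.21 ± 0.59 (standard error, n = 3 each). Every one of these was smaller than its standard error. In limma 0 members were called, against 0% of all probe sets, the lowest adjusted p was 1.00, and 0 were at an unadjusted p under 0.05, against 2.49% higher and 2.23% lower. With the replicate number as a block there were again 0, against 3.64% higher and 3.51% lower. A change of at least 2-fold was reached by 0, against 0.154% higher and 0.24% lower. The arrays did not overlap for 0 members, against 3.43% of all probe sets higher and 3.74% lower.

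This near-zero mean was made of numbers that went opposite ways. The mean of the 54 genes in TFPIβ minus that in empty vector was -0.01 for replicate number 1, -0.48 for number 2 and 0.49 for number 3, and 28, 2 and 52 genes were higher in TFPIβ, against 47.7%, 48.4% and 48.1% of all probe sets. Leaving out 1 array set the direction. The median log2 fold change was 0.58 without TFPIβ replicate 2, -0.46 without TFPIβ replicate 3 and -0.41 without empty vector replicate 2, and 0.23 without both replicate 2 arrays. With TFPIβ replicate 3 left out as well it was -0.05. The sign of the median also turned without empty vector replicate 1 or 3, at 0.13 and 0.20, and it was -0.19 without TFPIβ replicate 1. At an unadjusted p under 0.05, 5 genes were higher without TFPIβ replicate 2, against 2.71% of all probe sets, and the arrays then did not overlap for 13, against 7.62%.

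Set against each other, the arrays labelled TFPIβ were lower than those labelled TFPIα for all 54 genes in log2 fold change, whereas 49.7% of all probe sets had a log2 fold change above 0. The median was -0.89 and the range -1.42 to -0.34. The largest differences were those of SPC25 at -1.42 ± 0.78, BUB1 at -1.28 ± 0.65 and NCAPH at -1.22 ± 0.60, and the smallest those of BUB3 at -0.34 ± 0.18, PTTG1 at -0.41 ± 0.31 and SMC4 at -0.60 ± 0.41 (standard error, n = 3 each). At least a 2-fold change was reached by 17 genes, against 0.847% of all probe sets. The arrays did not overlap for 6, PLK1, TTK, KIF4A, NCAPH, CDC20 and UBE2C, against 7.1% of all probe sets. In limma 0 members were called, against 0% of all probe sets lower, with a lowest adjusted p of 0.532, and 0 were at an unadjusted p under 0.05, against 4.7% lower.

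By replicate number, the mean of the 54 genes in TFPIβ minus that in TFPIα was -0.58 for number 1, -2.16 for number 2 and 0.06 for number 3. The genes higher in TFPIβ were 0, 0 and 37, against 48.3%, 49.1% and 45.5% of all probe sets. TFPIβ replicate 3 lay within the range of the TFPIα arrays or above it for 48 genes, which held for 73.8% of all probe sets, and TFPIβ replicate 1 lay within 0.25 of the interval between empty vector replicates 1 and 3 for 53 genes, against 83.6%. Without TFPIβ replicate 2 the median log2 fold change was -0.28, 1 gene was above 0 and 0 genes reached a 2-fold change. Without TFPIβ replicate 3 it was -1.34, 45 genes reached a 2-fold change, 39 were lower at an unadjusted p under 0.05 (against 14% of all probe sets) and the arrays did not overlap for 49 (against 23.8%). Without TFPIβ replicate 1, 31 genes reached a 2-fold change, and without empty vector replicate 2, 2 were lower at an unadjusted p under 0.05, against 4.57% of all probe sets. For fits without an array, the share of all probe sets with a 2-fold change was not computed. With the replicate number as a block 26 were lower at an unadjusted p under 0.05, against 9.21% of all probe sets, and the lowest adjusted p was 0.320. This comparison and that of TFPIα with empty vector share the TFPIα arrays, and both comparisons with empty vector share its arrays, so their values are given side by side and not set against each other.

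**Figure D5:**
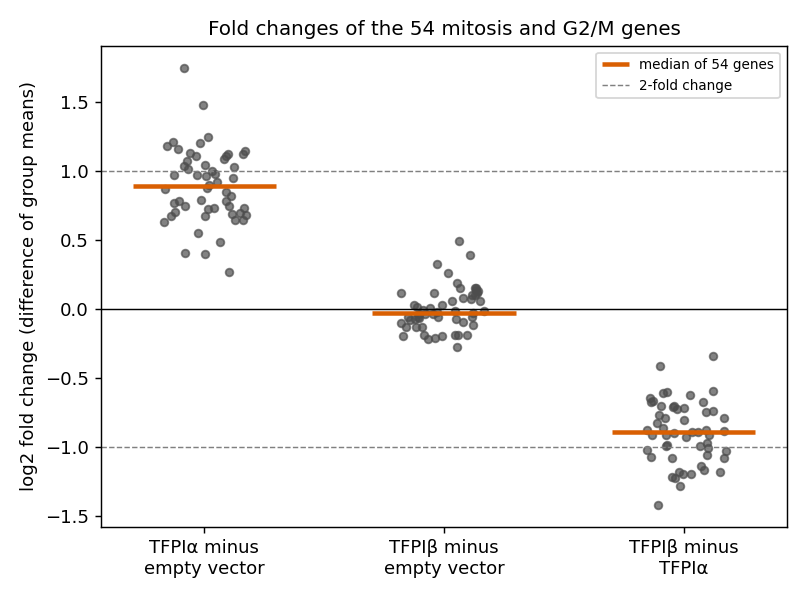
Log2 fold change (difference of group means) of each of the 54 mitosis and G2/M genes in the 3 comparisons, with the median as a thick line and a 2-fold change as dashed lines. The medians are 0.89, -0.03 and -0.89, and all 3 comparisons rest on the same 9 arrays.

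The replicate numbers were then compared with the group as a covariate, since arrays of the same number moved together over all probe sets. Averaged over the 3 groups, the mean of the 54 genes was 7.79 ± 0.33 for number 1, 6.92 ± 1.14 for number 2 and 7.98 ± 0.27 for number 3 (SD, n = 3 each). In the limma F test of the replicate number 0 of 54 genes were called at an adjusted p under 0.05, as were 0% of all probe sets, and the lowest adjusted p was 0.267. At an unadjusted p under 0.05 there were 18 (33.3%, against 16% of all probe sets). The largest F values were those of ESPL1 at 7.14, SPC24 at 6.88 and KIF14 at 6.87, and the smallest those of CDK1 at 2.55, CKS2 at 2.56 and HMMR at 2.70.

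Replicate 2 was the number that stood apart, and within it the arrays differed, with 8.20 in TFPIα, 6.04 in TFPIβ and 6.52 in empty vector. For replicate 2 against replicate 3 the median log2 difference of the 54 genes was -1.04, and 49 were lower at an unadjusted p under 0.05 (90.7%, against 9.24% of all probe sets). For replicate 1 against replicate 2 the median was 0.89 and 23 were higher (42.6%, against 7.84%), and for replicate 1 against replicate 3 it was -0.18, with 0 at that level. After adjustment in limma, 0 members passed in these 3 contrasts, the lowest adjusted p being 0.302, 0.256 and 0.483. Without TFPIα replicate 2, 13 of 54 members passed in replicate 2 against replicate 3, against 0.635% of all probe sets, the lowest adjusted p in limma being 0.0486. The 49 members at an unadjusted p under 0.05 in that contrast became 5 without empty vector replicate 2, 6 without TFPIβ replicate 2, 5 without TFPIβ replicate 3 and 8 without empty vector replicate 3, against 6.97%, 5.89%, 6.39% and 14.1% of all probe sets in either direction, and 29 without TFPIβ replicate 1, against 12.4%. The 23 in replicate 1 against replicate 2 became 2 without TFPIβ replicate 1, TFPIβ replicate 2 or empty vector replicate 2, against 8.08%, 8.24% and 9.28%, and the median of replicate 1 against replicate 3 turned to 0.16 without TFPIβ replicate 3. The 18 of the F test became 0 without empty vector replicate 2, 1 without TFPIβ replicate 2 and 54 without TFPIα replicate 2, against 11.3%, 10.7% and 23.3%. In these fits the shift of a number is taken to be the same in the 3 groups, which the replicate 2 arrays did not show.

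Among other genes of mitosis, 82 were listed and 81 measured, and they moved on the same levels with smaller sizes. Their mean log2 signal was 7.24, 7.26 and 7.31 in TFPIα, 6.78, 6.02 and 7.29 in TFPIβ and 6.85, 6.24 and 6.81 in empty vector. In TFPIα against empty vector 0 were called, 18 were higher (22.2%, against 8.59% of all probe sets) and 1 lower at an unadjusted p under 0.05, and the median log2 fold change was 0.60. Without empty vector replicate 2 the median was 0.43 and 2 were higher at an unadjusted p under 0.05, against 4.06%. The highest were ZWILCH, a kinetochore protein of the checkpoint, at 1.48 ± 0.51, and the kinases MELK and PBK at 1.41 ± 0.61 and 1.31 ± 0.62. The lowest were CDC25B, a phosphatase of the CDK1 complex, at -0.25 ± 0.10, STAG2, a cohesin subunit, at -0.15 ± 0.10 and CDC16, a subunit of the anaphase-promoting complex, at -0.13 ± 0.11 (standard error, n = 3 each).

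Of 27 regulators of G2/M transcription, 24 were measured and passed the filter, E2F8 did not pass it, and the others were not analysed here. FOXM1, the forkhead factor that acts with MuvB, had log2 signals of 7.60, 7.45 and 7.45 in TFPIα, 6.81, 4.98 and 7.40 in TFPIβ and 6.72, 5.40 and 6.63 in empty vector. MYBL2, which encodes B-MYB, had 7.59, 7.28 and 7.69 in TFPIα, 6.72, 5.54 and 7.63 in TFPIβ and 6.67, 5.70 and 6.49 in empty vector. These 2 genes lay on the same levels as the mitosis and G2/M genes, with the same 2 arrays lowest, and were 1.25 ± 0.59 and 1.24 ± 0.48 higher in TFPIα than in empty vector, at adjusted p = 0.367 and 0.344 in limma. E2F1, an activator of S phase genes, spanned 5.06 to 5.59 over the arrays, and CDKN1A, the inhibitor p21 that restrains CDKs, had 6.91, 7.85 and 6.99 in TFPIα, 6.70, 6.91 and 6.73 in TFPIβ and 6.75, 7.32 and 6.44 in empty vector. CDKN1A was highest in replicate 2 of each group and, in the replicate contrasts, was 0.64 ± 0.17 higher in replicate 2 than in replicate 3 (adjusted p = 0.302). Over the list, in TFPIα against empty vector, 0 were called, 7 were higher (29.2%, against 8.59% of all probe sets) and 1 lower at an unadjusted p under 0.05, and the median log2 fold change was 0.27. Without empty vector replicate 2 the median was 0.29, and FOXM1 and MYBL2 were 0.83 ± 0.61 and 0.94 ± 0.52. Of the rest, E2F7 had 1.00 ± 0.38, and RBL2, a pocket protein of the repressing form of the MuvB complex, CDKN1C and CDKN1B, inhibitors of CDKs, had the lowest at -0.34 ± 0.09, -0.24 ± 0.16 and -0.20 ± 0.23.

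The S phase and licensing genes, 36 of 37 measured, placed 3 of the arrays lower in their range than the mitosis and G2/M genes did. Their mean log2 signal was 7.76, 7.87 and 8.08 in TFPIα, 6.69, 5.93 and 8.06 in TFPIβ and 6.97, 6.14 and 6.69 in empty vector. The same 4 arrays were high, but TFPIβ replicate 1 and empty vector replicates 1 and 3, which stood at 72.3%, 72.6% and 75.7% of the way from the lowest to the highest array for the mitosis and G2/M genes, stood at 35.1%, 48.3% and 35.1% for the S phase genes. Above the midpoint between their own lowest and highest array were 52, 54 and 54 of the 54 mitosis and G2/M genes in those arrays, and 4, 17 and 4 of the 36 S phase genes. The difference between the lists was not tested. In TFPIα against empty vector the arrays did not overlap for 36 of 36 S phase genes, against 14.4% of all probe sets, and 30 (83.3%) were higher at an unadjusted p under 0.05, against 8.59%, with 0 called and a median log2 fold change of 1.28. Without empty vector replicate 2 the median was 1.00 and 3 were higher at an unadjusted p under 0.05, against 4.06%. The highest were CCNE2, or cyclin E2, at 2.35 ± 0.89, MCM10, a replication initiation factor, at 1.99 ± 0.63 and MCM6, a helicase subunit, at 1.84 ± 0.67. CDT1, a licensing factor, at 0.41 ± 0.16, RRM1, a ribonucleotide reductase subunit, at 0.62 ± 0.25 and SLBP, the histone mRNA binding protein, at 0.66 ± 0.23 were the lowest (standard error, n = 3 each).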

How the data were processed

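Total RNA was measured on 9 Affymetrix Human Gene arrays, 3 per labelled group. The authors processed the scans with RMA (background correction, normalisation between arrays and probe summary) in the Partek Genomics Suite, versions and genome build not given in the sources used here, and deposited log2 signals, 1 per probe set. That the scale is log2 follows from RMA and from the range of signals. No counts underlie an array signal, and the precision rests on the number of arrays.

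Probe sets with a highest signal of at least 5 were fitted with limma 3.58.1 in R 4.3.3 (lmFit, eBayes), all 9 arrays together, with p-values adjusted by Benjamini-Hochberg over 17482 probe sets. The 1-way model without variance moderation that the methods name was an alternative. The fits were run on simulated data with independent normal noise and 1 SD per probe set for all groups. Such data hold neither unequal group spreads nor shifts shared by many genes, so this run cannot show how the fits behave with them. Figures were drawn with matplotlib 3.10.9. The filter, the 2-fold threshold and a 10% false discovery rate are all named in the methods. The main rule here used an adjusted p under 0.05, and the 10% level was an alternative. By the study's account more transcripts passed its filter than the 17482 probe sets here. It also reported many changed transcripts with each isoform. Here the main rule called 1 probe set, higher, for TFPIα over empty vector and 0 for TFPIβ over empty vector. The calls of the study were thus not reproduced, and the reason was not tested.

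The members and all gene lists were chosen with earlier results of these data known. Named genes were chosen by rule: 12 members in every array, the 3 highest and 3 lowest of each comparison, and likewise of each other list. Values in every array for SPC25, CENPK and BUB3, and the low arrays of MAD2L1, were added after their values were seen. Fits of single genes, other lists and replicate contrasts without the arrays that stand apart were chosen after seeing the data. Some genes of the lists were not analysed here. Numbers in the sample titles run from 1 to 3 in each group. Over all probe sets tested, deviations from group means had correlations of 0.137 to 0.594 in the 9 same-number pairs. Over the other 18 pairs they were -0.512 to 0.266. Deviations within a group cancel out, so these ranges are not independent. Over the members, the same-number pairs ran from -0.160 to 0.650. Replicate 2 of TFPIα was there at -0.160 with TFPIβ and -0.03 with empty vector, and the other same-number pairs were positive. Arrays of the same number were thus alike over all probe sets, but not in every pair over the members. A fit with the replicate number as a block was an alternative.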

Additional observations from a re-analysis of the deposited data

How the results depend on the processing

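The count of called members was 0 in all 3 group comparisons under every alternative run: an adjusted p under 0.10, no variance moderation, only the compared groups, no filter, a filter at 6, centred arrays, a trended and robust prior, the mean of all probe sets of a gene, each array left out, and, chosen after seeing the data, the low and high arrays left out together. With the replicate number as a block, which treats arrays of the same number as paired, no call changed. The lowest adjusted p in limma was 0.190 for TFPIα over empty vector, 0.816 for TFPIβ over empty vector and 0.320 for TFPIβ over TFPIα. Among the contrasts of replicate numbers, the count ranged from 0 to 13 in replicate 2 against replicate 3 with 1 array left out, 13 being reached without TFPIα replicate 2; the cause was not tested. With 1 array left out, the mean of the 54 genes differed by 0.52 to 1.10 between TFPIα and empty vector, by -0.45 to 0.61 between TFPIβ and empty vector and by -1.34 to -0.28 between TFPIβ and TFPIα. The sign of the difference between TFPIβ and empty vector thus turned with the array left out. With centred arrays the differences were 0.92, -0.01 and -0.92. The signals had already been normalised between arrays, with array medians of 4.78 to 4.88, so centring could change little. The part of array scaling was not tested. Arrays give no read depth, and 3 isolations of 1 pool per group limit what can be detected.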
